A study of Homo sapiens with 12 samples.

Results

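S100A8, S100A9, S100A12, FCN1, CD300E, F13A1, MARCO, CD163 and MRC1 are genes by which circulating monocytes and the macrophages of the brain's borders (the meninges, the choroid plexus and the spaces around vessels) are commonly told from microglia, the macrophages of the brain tissue itself. Their expression was followed in human induced microglia-like cells (iMGLs) made from the H1 pluripotent stem cell line. The 9 genes were taken by symbol from a table of read counts with 57992 gene IDs, and all 9 were among the 16022 genes that passed the filter on low counts. They had been proposed with earlier results of these data known, those of KO and WT cells without LPS among them. Which values decided the choice is not recorded. The genes are treated as chosen by that contrast, which is given below as a description with no test.

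Monocytes arise in the bone marrow and circulate, whereas microglia and most border macrophages are seeded before birth and renew in place. Monocytes carry large stores of the S100 proteins and of the secreted pattern-recognition protein ficolin-1, and border macrophages are known for scavenger and mannose receptors that clear proteins, haemoglobin and microbes from the fluids around the brain. Macrophages that are cultured or meet lipopolysaccharide (LPS), the bacterial cell wall component sensed through TLR4, can also express several of these genes, so none of them marks 1 cell type alone.

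Expression was measured by sequencing mRNA in 12 libraries. In the order used below, the groups were MEF2C-knockout (KO) cells given LPS and the compound BMS265246 (KO LPS BMS, 2 libraries), KO cells given LPS (KO LPS, 2 libraries), KO cells without either (KO, 3 libraries), unedited (WT) cells given LPS (WT LPS, 2 libraries) and WT cells without it (WT, 3 libraries). MEF2C is a transcription factor expressed in microglia, and the series title names CDK2, a kinase of the cell cycle, as the kinase inhibited. All groups share the H1 line and the differentiation medium. No group held WT cells with BMS265246 or cells with BMS265246 and no LPS. The sources used here do not give the kind of edit, the number of clones, or how much LPS and compound was used and for how long. The titles call the replicates biological but do not say whether each was a differentiation of its own, so p-values measure the spread between these libraries.

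Levels are CPM, read counts relative to the library total, on library sizes scaled by the trimmed mean of M values (TMM). Changes are log2 fold changes ± standard error (SE), and adjusted p-values are those of edgeR's quasi-likelihood F test on all 12 libraries, 2-sided, with Benjamini-Hochberg adjustment over the 16022 genes. A gene was called at an adjusted p under 0.05. The KO and WT libraries, by which the genes are treated as chosen, are the baselines of the LPS responses. A choice for high levels in KO relative to WT libraries pulls the KO response downward and the WT response upward. Such a choice also pulls KO LPS BMS relative to KO downward. In these comparisons the adjusted p-values and calls of the chosen genes do not allow for the choice and are a description only. Library totals ran from 13888283 to 17639136 counts, and 3 counts, the limit that a count of 0 allows, stood for 0.154 to 0.236 CPM, which covers counting error only. MEF2C itself was still transcribed in KO cells, at 136, 129 and 135 CPM in the KO libraries against 193, 183 and 177 CPM in the WT libraries. With LPS it had 45.9 and 46.8 CPM in KO LPS against 49.6 and 51.6 CPM in WT LPS libraries, and with BMS265246 as well 43.7 and 44.1 CPM. The microglial receptor gene CSF1R had 1469 to 2119 CPM and the microglial marker gene TMEM119 25.7 to 44.4 CPM over the 12 libraries. SALL1, a transcription factor gene that defines microglia in the brain, had at most 3 counts in every library, so the labelled cell type lacked that marker. CD68, a lysosomal gene of macrophages, was listed at no more than 0.258 CPM in any library, and whether the annotation or the counting of reads gave that low value was not tested. In bulk RNA, a lower level from fewer cells of a type cannot be told apart from less RNA per cell.

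The 9 genes covered a wide range of levels. On a per-length scale, CPM per kilobase of annotated exon (RPKM), S100A9 stood highest in KO LPS cells at 1043 ± 43.1 RPKM (SD, n = 2) and F13A1 lowest at 3.93 ± 0.0336 RPKM (SD, n = 2). CD163 came next in KO LPS cells at 218 ± 11.6 RPKM, then S100A8 at 169 ± 10.9 RPKM and MRC1 at 123 ± 10.9 RPKM (SD, n = 2 each). The lengths join the exons of all annotated transcripts, 1006 bases for S100A8 and 577 for S100A9. A gene read mainly from a shorter transcript is thus placed too low. Which transcripts the cells used was not tested, so the order of genes on this scale is uncertain. In WT cells without LPS, S100A9 at 133 ± 2.04 RPKM and MRC1 at 122 ± 3.08 RPKM had the highest levels, and S100A12 at 0.601 ± 0.254 RPKM the lowest (SD, n = 3 each). Of the 9, S100A12 alone came near the detection floor. A count of at least 10 was reached for it in both libraries of each LPS-treated group but in 1 of 3 KO and 0 of 3 WT libraries, so it passed the filter through the LPS-treated groups.

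**Figure D1:**
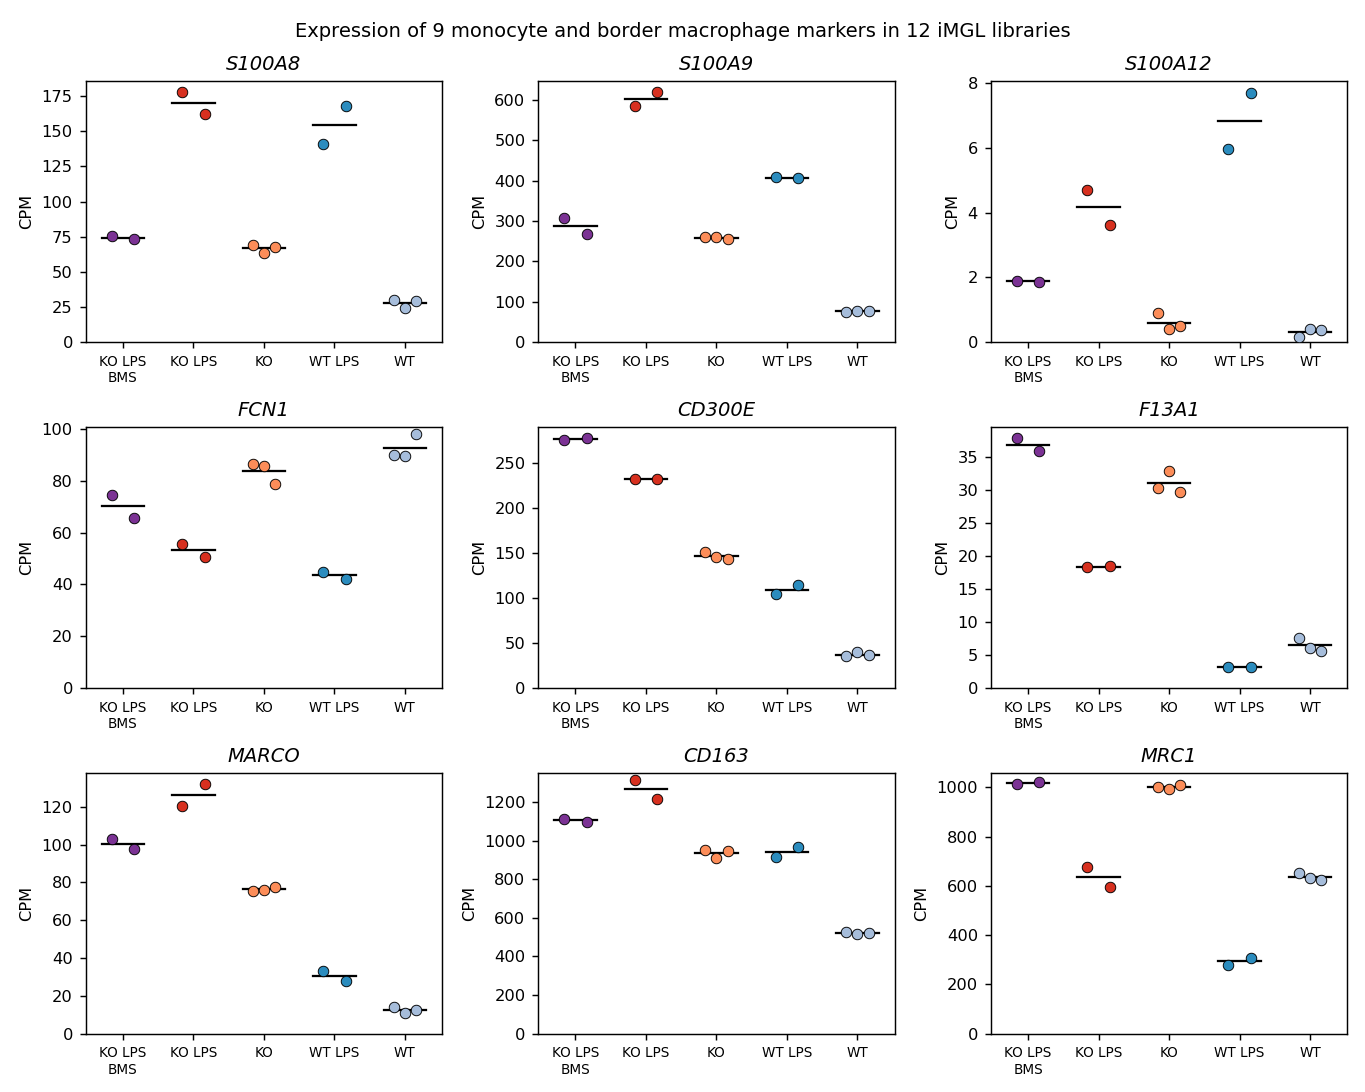
Level of each of the 9 genes in CPM (vertical axes, linear, starting at 0) in every library, with the 5 groups along the horizontal axis. Each point is 1 library and each bar is the group mean. S100A8 and S100A9 peak in the LPS-treated groups without BMS265246, CD300E and F13A1 peak in KO LPS BMS, and MRC1 is lowest in WT LPS.

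S100A8 and S100A9 encode the subunits of calprotectin, a calcium- and zinc-binding protein that myeloid cells release and that acts on TLR4, and S100A12 encodes a related protein that binds the receptor RAGE. The 3 genes lie within 33.3 kb of chromosome 1 (GRCh38). S100A9 (ENSG00000163220) is at chr1:153357854-153361027 on the plus strand, S100A12 (ENSG00000163221) at chr1:153373706-153375649 and S100A8 (ENSG00000143546) at chr1:153390032-153391188, both on the minus strand. Their upstream sequences are shown because all 3 neighbours were higher with LPS and lower with BMS265246, as described further on. The 250 bases before each RefSeq start (GRCh38.p14) read 5′ to 3′ on the gene's strand, with capitals for the motif letters found. For S100A8 the start is that of the longest transcript, and for S100A12 it lies 28 bases inside the GENCODE transcript.

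S100A9, chr1:153357604-153357853, plus strand: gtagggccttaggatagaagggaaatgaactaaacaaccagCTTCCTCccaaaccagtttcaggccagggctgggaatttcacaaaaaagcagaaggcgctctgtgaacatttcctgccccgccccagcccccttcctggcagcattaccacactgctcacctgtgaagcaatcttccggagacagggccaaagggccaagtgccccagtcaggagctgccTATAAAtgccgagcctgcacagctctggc
S100A12, chr1:153375622-153375871, minus strand: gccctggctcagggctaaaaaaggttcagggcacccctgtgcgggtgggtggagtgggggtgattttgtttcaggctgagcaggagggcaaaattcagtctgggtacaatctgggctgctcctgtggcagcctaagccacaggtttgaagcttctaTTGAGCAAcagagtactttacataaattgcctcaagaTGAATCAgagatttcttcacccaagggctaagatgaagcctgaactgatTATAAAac
S100A8, chr1:153391189-153391438, minus strand: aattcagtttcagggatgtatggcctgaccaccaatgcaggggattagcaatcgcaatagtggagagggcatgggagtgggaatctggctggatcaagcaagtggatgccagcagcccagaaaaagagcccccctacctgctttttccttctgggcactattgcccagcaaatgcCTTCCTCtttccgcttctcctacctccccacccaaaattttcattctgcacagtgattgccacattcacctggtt

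Motifs were searched on both strands. GAGGAAG, a core of PU.1 sites, was found on the opposite strand 209 bases before the S100A9 start and 75 before the S100A8 start, and 11.2% of all 35116 RefSeq windows of that length hold it. In the S100A12 window, TTNNGCAA (C/EBP) was found 94 bases before the start and TGANTCA (AP-1) 57 before it, with background shares of 9.05% and 6.57%. TATAAA, a search that was added after the windows had been read, was found on the gene's strand 29 bases before the S100A9 start and 8 before that of S100A12. It also stood 29 bases before the start of a shorter S100A8 transcript, inside the longest one. Some 10.7% of all windows hold these letters, and 2.30% hold them on the gene's strand 20 to 40 bases before the start. The stretches around them in S100A8 and S100A9, 30 bases each, are:
S100A8, chr1:153391081-153391110, minus strand: ctaaccgcTATAAAaaggagctgcctctca
S100A9, chr1:153357817-153357846, plus strand: gagctgccTATAAAtgccgagcctgcacag

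CTA and TAG with 4 bases between them (MEF2, background 2.36%) and GGGA and TTCC with 2 between them (NF-kB, background 1.40%) were in none of the windows of the 7 genes that had one, which are all but CD300E and MRC1. Besides the S100 genes, TTNNGCAA was found 211 bases before the CD163 start, and none of the 6 motifs in the windows of MARCO, FCN1 and F13A1. The RefSeq starts of these genes lay inside the GENCODE genes, by 351 bases for F13A1, 116 for CD163, 51 for FCN1 and 28 for MARCO. The F13A1 window thus lay wholly inside its GENCODE gene. These matches describe the letters only.

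Both calprotectin genes were higher with LPS in either genotype and lower in KO LPS BMS than in KO LPS. S100A8 had 75.2 and 73.0 CPM in KO LPS BMS, 178 and 162 CPM in KO LPS, 69.1, 63.7 and 67.6 CPM in KO, 141 and 168 CPM in WT LPS, and 29.8, 24.2 and 29.0 CPM in WT libraries. The KO LPS and WT LPS libraries overlapped, and the other 3 groups lay below them without overlap. S100A9 had 308 and 267 CPM in KO LPS BMS, 584 and 619 CPM in KO LPS, 259, 259 and 255 CPM in KO, 409 and 405 CPM in WT LPS, and 75.6, 76.7 and 78.0 CPM in WT libraries. No pair of groups overlapped for S100A9, whose order was KO LPS, WT LPS, KO LPS BMS, KO and WT.

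With LPS, S100A8 rose by 1.35 ± 0.08 on the log2 scale in KO cells (adjusted p = 2.14e-11) and by 2.48 ± 0.09 in WT cells (adjusted p = 1.34e-15). For S100A9 the LPS responses were 1.22 ± 0.06 in KO cells (adjusted p = 2.68e-14) and 2.41 ± 0.06 in WT cells (adjusted p = 1.51e-19). Without LPS, the KO libraries of both genes lay above the WT libraries, with log2 fold changes of 1.27 ± 0.08 for S100A8 and 1.75 ± 0.05 for S100A9. Under LPS, in other libraries, S100A9 was higher in KO than in WT cells by 0.56 ± 0.06 (adjusted p = 4.3e-07). S100A8 did not pass the test there, at 0.14 ± 0.09 (adjusted p = 0.252), and passed it without WT LPS replicate 2 (0.27). Over the alternatives its adjusted p ran from 0.0447 to 0.948. The per-length ratio of S100A8 to S100A9 mRNA, given as a description, was 0.140 to 0.157 in KO LPS BMS, 0.150 to 0.175 in KO LPS and 0.141 to 0.153 in KO libraries, against 0.197 to 0.239 in WT LPS and 0.181 to 0.226 in WT libraries. The level of this ratio depends on the exon lengths used, which are the same for all groups.

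BMS265246 in the presence of LPS lowered both genes. S100A8 fell by 1.20 ± 0.09 on the log2 scale in KO LPS BMS relative to KO LPS (change -1.20, adjusted p = 2.19e-09) and S100A9 fell by 1.07 ± 0.06 (change -1.07, adjusted p = 1.05e-11). Relative to KO cells without LPS, S100A8 differed by 0.15 ± 0.09, which did not pass the test (adjusted p = 0.133), although it did when only those 2 groups were fitted (0.17), with adjusted p of 0.0186 to 0.335 over the alternatives. S100A9 was above KO by 0.16 ± 0.06 (adjusted p = 0.0204), a call that was lost without KO LPS BMS replicate 1 (0.06) or KO replicate 3 (0.15). Without KO LPS BMS replicate 2 that difference was 0.26. With library sizes alone it was -0.18, and over the alternatives the adjusted p ran from 0.00209 to 0.498.

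S100A12 was scarce. It had 1.89 and 1.87 CPM in KO LPS BMS, 4.71 and 3.63 CPM in KO LPS, 0.903, 0.391 and 0.484 CPM in KO, 5.98 and 7.69 CPM in WT LPS, and 0.162, 0.412 and 0.360 CPM in WT libraries. The KO and WT libraries overlapped, and the LPS-treated groups stood apart from them and from each other. Because the gene passed the filter through the LPS-treated groups, its fitted log2 fold changes against groups without LPS are given as a description with no test. They were 2.83 ± 0.31 for KO LPS over KO, 4.42 ± 0.31 for WT LPS over WT and 1.68 ± 0.36 for KO LPS BMS over KO. Relative to KO LPS, the gene fell with BMS265246 by 1.15 ± 0.29 (change -1.15, adjusted p = 0.00253). Unlike S100A9, S100A12 was lower in KO LPS than in WT LPS, with a log2 fold change of -0.71 ± 0.24 (adjusted p = 0.028). That call was lost without WT LPS replicate 2 (-0.52), without KO LPS replicate 2 (-0.54), with only the 2 groups fitted (-0.72) and in DESeq2 (-0.75), with adjusted p of 0.0152 to 0.258 over the alternatives. Without LPS, the log2 fold change between KO and WT was 0.87 ± 0.45, and 0.47 without KO replicate 1.

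Of 11 other S100 genes tested, 2 were higher and 3 lower in KO LPS relative to KO (all tested genes: 24.5% and 20.3%). In WT LPS relative to WT, 3 were higher and 3 lower (all tested genes: 28.9% and 30.8%). S100A10, the partner of annexin A2, was among those that rose, by 0.99 ± 0.06 in KO cells (adjusted p = 7.72e-12) and 1.52 ± 0.06 in WT cells (adjusted p = 2.03e-15), and S100A11 by 0.29 ± 0.06 (adjusted p = 0.000409) and 0.58 ± 0.06 (adjusted p = 2.79e-08). Both had a smaller response in KO than in WT cells (interaction -0.52 ± 0.09, adjusted p = 0.000365, and -0.29 ± 0.09, adjusted p = 0.0327). Of the 11, 2 were higher and 1 lower in KO LPS relative to WT LPS (all tested genes: 15.6% and 15.0%). S100A10 was the lower gene, at -0.34 ± 0.07 (adjusted p = 0.000415). With BMS265246, 4 of the 11 were higher and 0 lower relative to KO LPS (all tested genes: 22.3% and 25.5%). Among the 4 was S100A4 (0.39 ± 0.06, adjusted p = 1.05e-05), which encodes a motility-related calcium-binding protein. Of 12 receptors and partners of calprotectin, 7 were higher and 2 lower in KO LPS relative to WT LPS. TLR4 was one of the lower, with 69.0 and 58.8 CPM in KO LPS against 82.9 and 95.1 CPM in WT LPS libraries (-0.48 ± 0.09, adjusted p = 0.00021). ITGAM, the integrin subunit CD11b, was one of the higher (0.86 ± 0.06, adjusted p = 1.25e-10). AGER, which encodes RAGE, was not called in that comparison (-0.00 ± 0.17, adjusted p = 0.994).

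MARCO and CD163 encode scavenger receptors, MARCO a collagen-like receptor for bacteria and particles and CD163 the receptor for haemoglobin bound to haptoglobin. MARCO (ENSG00000019169, chr2:118942166-118994660, plus strand) had 103 and 97.8 CPM in KO LPS BMS, 120.3 and 132 CPM in KO LPS, 75.5, 75.8 and 77.6 CPM in KO, 33.0 and 28.0 CPM in WT LPS, and 14.1, 11 and 12.3 CPM in WT libraries. No groups overlapped, and every library of KO genotype lay above every library of WT genotype, whatever the treatment. This order includes the KO and WT libraries without LPS, by which the genes are treated as chosen, and is a description only. MARCO was higher in KO LPS than in WT LPS by 2.05 ± 0.09 (adjusted p = 3.3e-13). Without LPS the log2 fold change between KO and WT was 2.62 ± 0.08. The gene rose with LPS by 0.73 ± 0.08 in KO cells (adjusted p = 4.83e-08) and by 1.29 ± 0.10 in WT cells (adjusted p = 9.96e-11). With BMS265246 it was lower relative to KO LPS (log2 fold change -0.33 ± 0.08, adjusted p = 0.00227) and higher by 0.39 ± 0.08 relative to KO (adjusted p = 0.000139), though not with library sizes alone (0.05, adjusted p over the alternatives 3.69e-07 to 0.535).

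CD163 (ENSG00000177575, chr12:7470813-7503893, minus strand) had 1112 and 1098 CPM in KO LPS BMS, 1312 and 1217 CPM in KO LPS, 951, 909 and 945 CPM in KO, 915 and 969 CPM in WT LPS, and 529, 516 and 522 CPM in WT libraries. The KO and WT LPS libraries overlapped, and the other groups stood apart. Its LPS responses were 0.44 ± 0.05 in KO cells (adjusted p = 1.03e-07) and 0.85 ± 0.05 in WT cells (adjusted p = 7.58e-13), and under LPS it was higher in KO than in WT by 0.42 ± 0.05 (adjusted p = 2.59e-06). The log2 fold change between KO and WT without LPS was 0.84 ± 0.04. BMS265246 lowered it by a small amount relative to KO LPS (-0.19 ± 0.05, adjusted p = 0.00419), a call that was lost without KO LPS replicate 1 (-0.10) and when only the 2 groups were fitted (-0.18), with adjusted p of 0.000314 to 0.214 over the alternatives. Relative to KO it was higher by 0.24 ± 0.05 (adjusted p = 0.000158), and with library sizes alone lower at -0.10 and not called. CD163 overlaps CD163L1, its paralog, on the same strand, and MARCO overlaps an antisense gene, AC013457.1. Reads in the overlap of CD163 and CD163L1 are uncertain whatever the strand setting of the counting. For MARCO, reads in the overlap are uncertain because that setting is not given.

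Of 11 other scavenger receptors tested, 3 were higher and 6 lower in KO LPS relative to KO (all tested genes: 24.5% and 20.3%). In WT LPS relative to WT, 4 were higher and 7 lower (all tested genes: 28.9% and 30.8%). CXCL16, a receptor for oxidized lipoprotein that is also a chemokine, rose as MARCO and CD163 did, by 0.47 ± 0.06 in KO cells (adjusted p = 2.13e-06) and 0.42 ± 0.06 in WT cells (adjusted p = 4.76e-06). MSR1, the class A receptor nearest in kind to MARCO, had 112 and 104 CPM in KO LPS BMS, 71.9 and 63.7 CPM in KO LPS, 90.6, 85.7 and 90.1 CPM in KO, 27.2 and 28.6 CPM in WT LPS, and 50.7, 48.6 and 49.6 CPM in WT libraries. It fell with LPS in both genotypes, with log2 changes of -0.39 ± 0.07 in KO (adjusted p = 4.98e-05) and -0.83 ± 0.07 in WT cells (adjusted p = 2.34e-09), where MARCO rose. Under LPS, MSR1 was higher in KO than in WT by 1.28 ± 0.08 (adjusted p = 8.45e-11), and COLEC12, another receptor of that class, by 1.18 ± 0.07 (adjusted p = 3.03e-11). CD163L1 was not called there (-0.09 ± 0.09, adjusted p = 0.511). HMOX1, the haem-degrading enzyme downstream of haemoglobin uptake through CD163, was not called there either (0.08 ± 0.08, adjusted p = 0.486). Of 12 tested genes of haemoglobin and haem handling, 5 were higher and 3 lower in that comparison (all tested genes: 15.6% and 15.0%).

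MRC1 encodes the mannose receptor CD206, an endocytic lectin of border and tissue macrophages. The gene (ENSG00000260314, chr10:17809344-17911170, plus strand) had 1011 and 1022 CPM in KO LPS BMS, 677 and 597 CPM in KO LPS, 1001, 991 and 1009 CPM in KO, 279.8 and 309 CPM in WT LPS, and 654, 630.0 and 624 CPM in WT libraries. The KO LPS and WT libraries overlapped, WT LPS lay below every other group, and KO LPS BMS lay just above KO. MRC1 fell with LPS, with log2 changes of -0.65 ± 0.06 in KO (adjusted p = 2.14e-09) and -1.11 ± 0.06 in WT cells (adjusted p = 1.79e-13). Under LPS it was higher in KO than in WT by 1.11 ± 0.06 (adjusted p = 1.28e-11), and without LPS the log2 fold change was 0.65 ± 0.05. BMS265246 raised it by 0.67 ± 0.06 relative to KO LPS (adjusted p = 8.39e-09), to a level that differed from KO by 0.02 ± 0.05 (adjusted p = 0.732). With library sizes alone that difference was -0.31 and called, and its adjusted p ran from 6.13e-05 to 0.924 over the alternatives. The strand setting limits MRC1 as it does MARCO, since MRC1 overlaps the antisense gene AC069023.1.

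Of 12 tested mannose receptor family members and C-type lectins, 4 were higher and 3 lower in KO LPS relative to WT LPS. The shares over all tested genes were 15.6% and 15.0%. In KO LPS BMS relative to KO LPS, 4 of the 12 were higher and 5 lower (all tested genes: 22.3% and 25.5%). MRC2, the paralog that takes up collagen, had 93.7 and 70.1 CPM in KO LPS BMS, 41.2 and 54.0 CPM in KO LPS, 77.8, 91.4 and 87.8 CPM in KO, 30.4 and 26.7 CPM in WT LPS, and 95.1, 105 and 103 CPM in WT libraries. It fell with LPS by log2 changes of -0.85 ± 0.14 in KO (adjusted p = 0.000603) and -1.82 ± 0.15 in WT cells (adjusted p = 1.41e-06), as MRC1 did. Under LPS it was higher in KO than in WT by 0.74 ± 0.17 (adjusted p = 0.00746). CLEC4E, a lectin that senses fungi and dead cells, was lower in KO LPS than in WT LPS (-0.45 ± 0.11, adjusted p = 0.00332) and lower again with BMS265246 (-1.34 ± 0.12, adjusted p = 8.78e-09).

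CD300E encodes an activating receptor of monocytes that signals through the adaptor DAP12, the product of TYROBP. The gene (ENSG00000186407, chr17:74609887-74623738, minus strand) had 275 and 278 CPM in KO LPS BMS, 232 and 232 CPM in KO LPS, 151, 146 and 143 CPM in KO, 104 and 114 CPM in WT LPS, and 35.0, 39.4 and 36.7 CPM in WT libraries. No groups overlapped, and every library of KO genotype lay above every library of WT genotype, a description that again includes the KO and WT libraries of the choice. CD300E rose with LPS by 0.66 ± 0.06 in KO (adjusted p = 3.46e-09) and by 1.55 ± 0.06 in WT cells (adjusted p = 2.46e-15). Under LPS it was higher in KO than in WT by 1.09 ± 0.07 (adjusted p = 6.25e-11), and without LPS the log2 fold change was 1.99 ± 0.06. With BMS265246 it did not fall as the S100 genes did. It was higher by 0.25 ± 0.06 relative to KO LPS (adjusted p = 0.00276) and by 0.91 ± 0.06 relative to KO (adjusted p = 8.6e-12).

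Most of the other CD300 family genes and adaptors were lower with LPS. Of 6 tested, 1 was higher and 5 lower in WT LPS relative to WT (all tested genes: 28.9% and 30.8%). In KO LPS relative to KO, 1 was higher and 4 lower (all tested genes: 24.5% and 20.3%). CD300A, an inhibitory family member, had 149.6 and 146 CPM in KO LPS BMS, 85.3 and 85.2 CPM in KO LPS, 202, 197 and 191 CPM in KO, 66.3 and 58.5 CPM in WT LPS, and 201, 197 and 196 CPM in WT libraries. Its log2 changes with LPS were -1.20 ± 0.06 in KO (adjusted p = 2.05e-13) and -1.67 ± 0.06 in WT cells (adjusted p = 6.19e-16). CD300LF, another inhibitory member, fell with LPS as well, by log2 changes of -1.09 ± 0.06 in KO (adjusted p = 2.74e-12) and -1.54 ± 0.07 in WT cells (adjusted p = 5.76e-15). Under LPS, 5 of the 6 were higher in KO than in WT and 0 lower (all tested genes: 15.6% and 15.0%). Among the 5 were CD300LF (0.56 ± 0.07, adjusted p = 3.91e-06) and TYROBP (0.60 ± 0.11, adjusted p = 0.00119).

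F13A1 and FCN1 encode secreted proteins, F13A1 the catalytic subunit of coagulation factor XIII, a transglutaminase, and FCN1 ficolin-1, which binds microbial sugars and starts the lectin pathway of complement. F13A1 (ENSG00000124491, chr6:6144085-6321013, minus strand) had 37.9 and 35.9 CPM in KO LPS BMS, 18.3 and 18.5 CPM in KO LPS, 30.4, 33.0 and 29.8 CPM in KO, 3.12 and 3.13 CPM in WT LPS, and 7.62, 6.12 and 5.66 CPM in WT libraries. No groups overlapped, and all libraries of KO genotype lay above all of WT genotype, a description that again includes the KO and WT libraries of the choice. F13A1 fell with LPS, by log2 changes of -0.75 ± 0.10 in KO (adjusted p = 3.11e-06) and -1.05 ± 0.16 in WT cells (adjusted p = 7.16e-06). Under LPS it was higher in KO than in WT by 2.56 ± 0.15 (adjusted p = 4.97e-11), the largest such difference among the 9 genes, and without LPS the log2 fold change was 2.26 ± 0.10. BMS265246 raised it by 1.00 ± 0.11 relative to KO LPS (adjusted p = 2.37e-07). Relative to KO it was higher by 0.25 ± 0.10 (adjusted p = 0.0308), a call that was lost without either KO LPS BMS library (0.21 and 0.29), without KO replicate 1 (0.23) or KO replicate 3 (0.22). With library sizes alone it was -0.09, and its adjusted p ran from 0.00459 to 0.423 over the alternatives. TGM2, tissue transglutaminase, also fell with LPS (-0.79 ± 0.06 in KO cells, adjusted p = 3.99e-10, and -1.35 ± 0.06 in WT cells, adjusted p = 2.71e-14) and was higher in KO than in WT under LPS by 0.90 ± 0.07 (adjusted p = 1.19e-09).

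FCN1 (ENSG00000085265, chr9:134905890-134917963, minus strand) was the one member whose mean was lower in KO than in WT libraries without LPS. It had 74.6 and 65.6 CPM in KO LPS BMS, 55.7 and 50.7 CPM in KO LPS, 86.6, 85.5 and 78.7 CPM in KO, 44.9 and 42.0 CPM in WT LPS, and 89.8, 89.6 and 98.0 CPM in WT libraries. No groups overlapped, and the order was WT, KO, KO LPS BMS, KO LPS and WT LPS. The log2 fold change between KO and WT was -0.15 ± 0.06. FCN1 fell with LPS by log2 changes of -0.65 ± 0.08 in KO (adjusted p = 2.31e-07) and -1.09 ± 0.08 in WT cells (adjusted p = 4.08e-11). Under LPS it was higher in KO than in WT by 0.29 ± 0.08 (adjusted p = 0.0122), a call lost without WT LPS replicate 2 (0.24), without KO LPS replicate 1 (0.20) and when only the 2 groups were fitted (0.28), with adjusted p of 0.00529 to 0.144 over the alternatives. BMS265246 raised it by 0.40 ± 0.08 relative to KO LPS (adjusted p = 0.000448). It stayed below KO (log2 fold change -0.26 ± 0.07, adjusted p = 0.00467), a call that was lost without KO LPS BMS replicate 2 (-0.16), with adjusted p of 2.84e-07 to 0.152 over the alternatives. Of 8 ficolin and lectin pathway genes, 2 passed the filter, and SERPING1, an inhibitor of that pathway, was higher in KO LPS than in WT LPS (0.88 ± 0.08, adjusted p = 2.26e-08).

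Set side by side, the 9 genes fell into those that were higher and those that were lower with LPS, the same ones in KO and in WT cells. S100A8, S100A9, S100A12, CD300E, MARCO and CD163 were higher, and FCN1, F13A1 and MRC1 were lower. S100A12 is left out of the counts of these LPS responses, since it passed the filter through the LPS-treated groups. The other 8 were all called in KO LPS relative to KO, where 44.8% of the tested genes were (24.5% higher and 20.3% lower), and in WT LPS relative to WT, where 59.7% were (28.9% higher and 30.8% lower). The median log2 fold change of the 8 was 0.55 in KO and 1.07 in WT cells, against -0.00 and -0.07 over all tested genes. The KO and WT libraries by which the genes are treated as chosen are the baselines of these responses. A choice for high levels in KO relative to WT libraries pulls the KO response downward and the WT response upward, so the medians of the 2 genotypes are not compared. For the same reason the counts and adjusted p-values of these responses are a description and no test of the chosen genes. Scaling to library size alone moved the median of all genes by -0.26 in the KO and -0.29 in the WT comparison. With it, 25.5% of all calls in KO cells were higher, against 54.7% with TMM, and 26.7% against 48.4% in WT cells. The direction of each of the 8 and its call held under that scaling in both comparisons. CD163's log2 fold change was then 0.18 in KO and 0.56 in WT cells, and those of CD300E and MARCO in KO cells were 0.41 and 0.47.

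**Figure D2:**
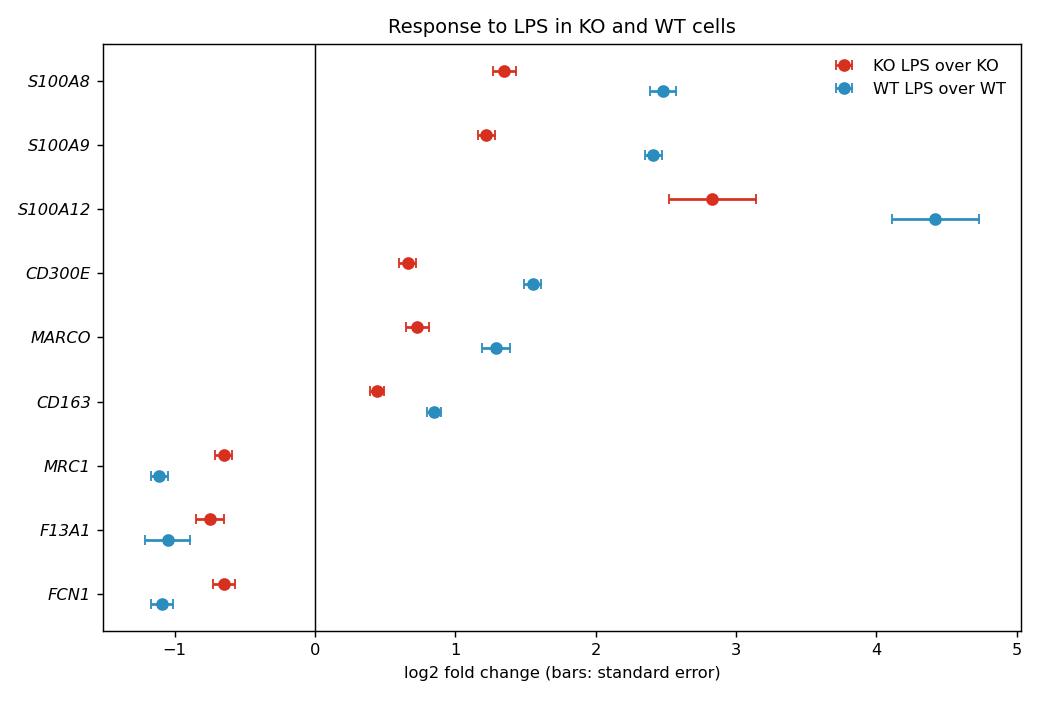
Log2 fold change with LPS in KO cells (KO LPS over KO, red) and in WT cells (WT LPS over WT, blue) for each of the 9 genes, with bars for the standard error. The blue point lies farther from 0 than the red point for every gene, on the right for the 6 that were higher and on the left for the 3 that were lower.

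The difference between the responses (the genotype by LPS interaction) contains the contrast by which the genes are treated as chosen. A choice for high levels in KO relative to WT libraries pulls this difference downward. It is therefore given as a description with no test. It was negative for the 6 genes that were higher with LPS, from -0.42 ± 0.07 for CD163 to -1.18 ± 0.08 for S100A9 and -1.58 ± 0.51 for S100A12. It was positive for the 3 that were lower, at 0.29 ± 0.19 for F13A1, 0.44 ± 0.11 for FCN1 and 0.46 ± 0.08 for MRC1. The fit called 8 of the 9, with 2 higher and 6 lower, where 12% of the tested genes were called (6.42% higher and 5.57% lower), a count from which nothing is read. That of S100A12 was lost on leaving out any of 9 of the 12 libraries, with values of -1.83 to -1.19. Of all calls in this comparison 53.5% were higher, set against 65.3% with library sizes alone and 43.5% with DESeq2's size factors.

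Between genotypes under LPS, the fold changes use none of the KO and WT libraries. Whether they were also in view when the genes were chosen is not recorded. In this comparison 8 of the 9 were called, 7 higher and 1 lower, where 30.6% of the tested genes were called (15.6% higher and 15.0% lower). The median log2 fold change of the 9 was 0.56, against 0.03 over all tested genes. Without S100A12, the gene that was lower, 7 of the other 8 were higher and 0 lower, with a median of 0.83. F13A1 and MARCO had the largest differences and S100A8 the smallest in size. Without LPS, 7 of the 9 were called higher in KO and 0 lower, where 21.6% of the tested genes were called (10.2% higher and 11.4% lower). Nothing is read from that count because the genes are treated as chosen by that contrast.

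**Figure D3:**
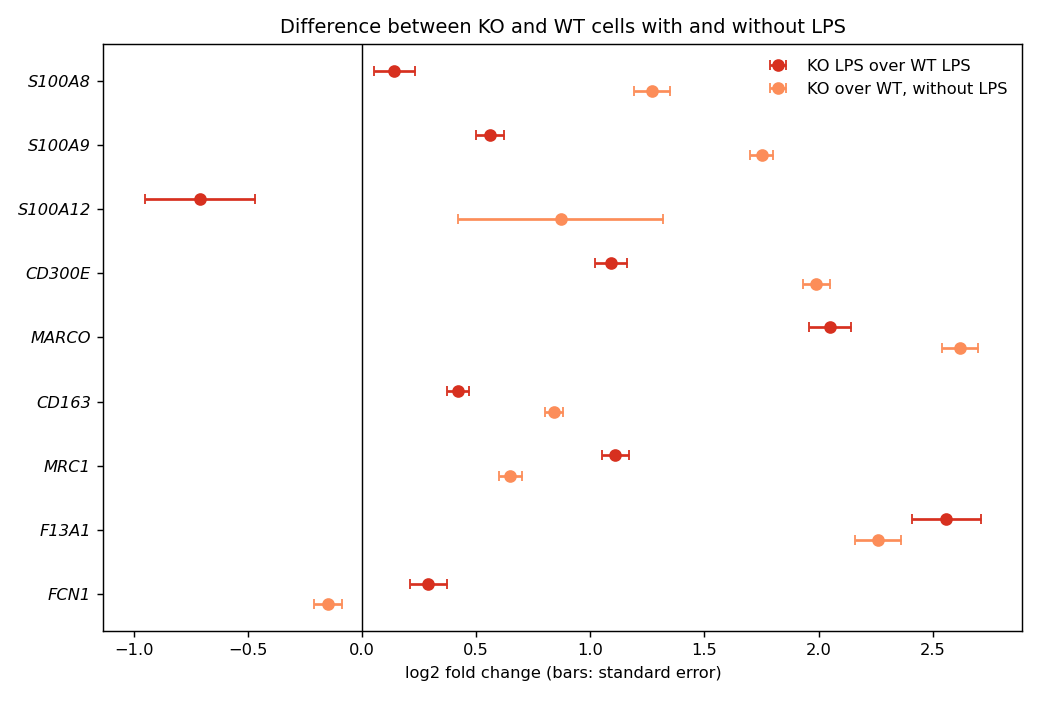
Log2 fold change between genotypes with LPS (KO LPS over WT LPS, red) and without it (KO over WT, orange) for each of the 9 genes, with bars for the standard error. Under LPS the points of F13A1 and MARCO lie above 2, that of S100A8 lies at 0.14 and that of S100A12 lies left of 0. The orange points are a description of the contrast by which the genes are treated as chosen.

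BMS265246 moved the 9 genes in both directions. Relative to KO LPS, S100A8, S100A9, S100A12, MARCO and CD163 fell and FCN1, CD300E, F13A1 and MRC1 rose, so all 9 were called, where 47.8% of the tested genes were (22.3% higher and 25.5% lower). Whether these values were also in view when the genes were chosen is not recorded, so the count is a description. This comparison shares the KO LPS libraries with the LPS response of KO cells, which can set opposite signs in the 2, so no agreement between them is counted. The median log2 fold change of the 9 was -0.19, against -0.04 over all tested genes. Without S100A12, 4 of the other 8 were higher and 4 lower, with a median of 0.03. Relative to KO cells without LPS, 5 of the 8 genes other than S100A12 were higher, 1 lower and 2 not called, where 62.7% of the tested genes were called (30.3% higher and 32.4% lower). The baseline of this comparison is the KO libraries, and a choice of genes for high levels in them pulls it downward. Nothing is read from its count. Against KO the order depended on the scaling, since library size alone moved the median of all genes by -0.33. It left 26.1% of all calls higher, against 48.4% with TMM. With it S100A8 (-0.19), S100A9 (-0.18), F13A1 (-0.09), CD163 (-0.10) and MRC1 (-0.31) changed sign and MARCO was not called (0.05), while CD300E (0.58) was still called higher and FCN1 (-0.59) lower.

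**Figure D4:**
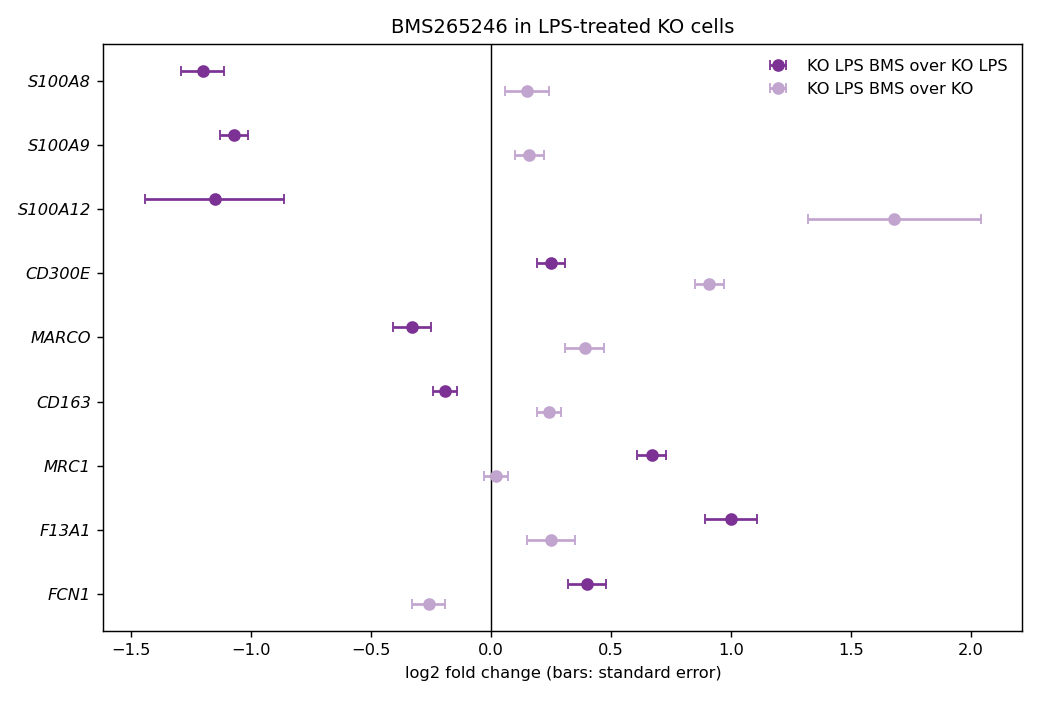
Log2 fold change of KO LPS BMS over KO LPS (dark purple) and over KO (light purple) for each of the 9 genes, with bars for the standard error. Relative to KO LPS, the 3 S100 genes lie left of -1, F13A1 lies at 1.00 and CD300E at 0.25, and relative to KO the points lie within 0.5 of 0, except S100A12 at 1.68 and CD300E at 0.91.

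Other genes of the same cell types were followed through lists of names, chosen like the 9 genes with earlier results of these data known. Some genes are on several lists and are counted in each. Examples are CX3CR1 (monocyte and microglial), CSF3R (monocyte and granulocyte), COLEC12 (scavenger receptor and border macrophage) and CLEC10A (lectin, border macrophage and dendritic cell). Shares over all tested genes in KO LPS relative to WT LPS were 15.6% higher and 15.0% lower, with a median log2 fold change of 0.03. Of 18 tested other monocyte markers, 5 were higher and 3 lower in that comparison, with a median of 0.04. Among the higher were FCGR3A, the Fc receptor CD16 (1.07 ± 0.06, adjusted p = 2.34e-11, uncertain because FCGR3B is a near-identical copy), and CSF3R, the receptor for granulocyte colony-stimulating factor (0.91 ± 0.07, adjusted p = 4.48e-09). Among the lower was CCR2, the receptor that draws monocytes into tissue, with 32.5 and 27.8 CPM in KO LPS against 59.3 and 65.1 CPM in WT LPS libraries (-1.04 ± 0.09, adjusted p = 2.28e-08). The summed level of the list was 6132 to 6182 CPM in KO LPS against 5628 to 5708 CPM in WT LPS libraries. Of 14 tested other border macrophage markers, 8 were higher and 2 lower, with a median of 0.32. That list summed to 6865 and 10613 CPM in the KO LPS libraries, which lay far apart, against 4157 to 5148 CPM in WT LPS. FOLR2, a folate receptor of border macrophages, was among the higher (1.07 ± 0.08, adjusted p = 1.75e-09), and MS4A7 (-0.28 ± 0.07, adjusted p = 0.00272) and CD36, a fatty acid and lipoprotein receptor (-0.24 ± 0.07, adjusted p = 0.0163), were the lower. Of 18 tested homeostatic microglial genes, 6 were higher and 3 lower, with a median of 0.09. The sum of that list overlapped between the groups, at 5278 to 5711 CPM in KO LPS and 5463 to 6142 CPM in WT LPS libraries. TREM2, a lipid-sensing receptor, was among the higher (0.75 ± 0.08, adjusted p = 1.6e-07) and CSF1R, the receptor microglia need to survive, among the lower (-0.23 ± 0.05, adjusted p = 0.00127).

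**Figure D5:**
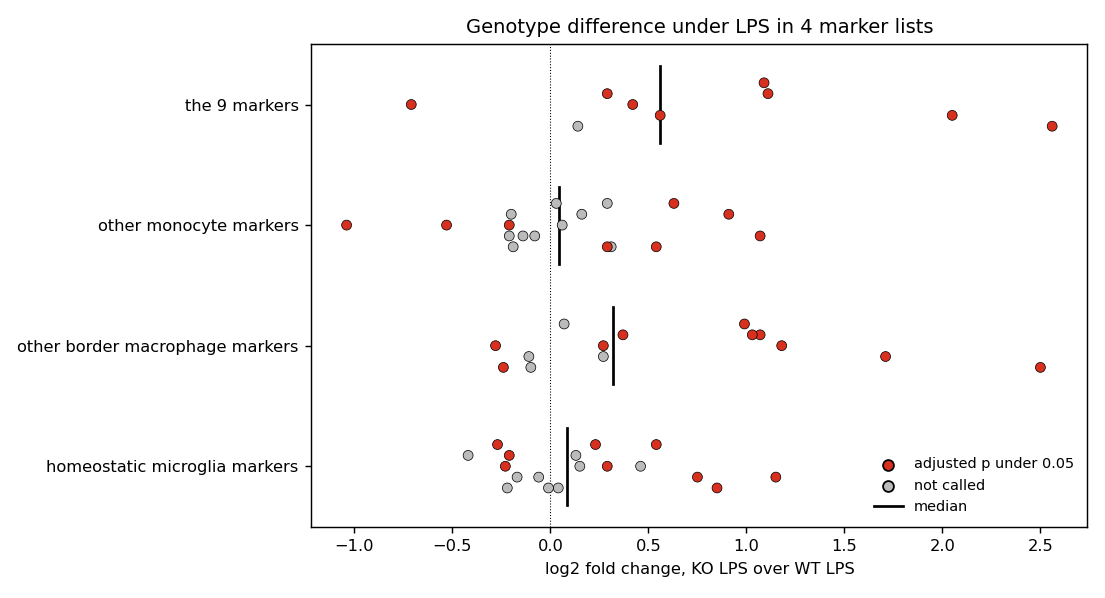
Log2 fold change of KO LPS over WT LPS (horizontal axis) for the 9 genes and for 3 lists of markers that do not hold them, 1 point per tested gene, red where called and grey where not, with a bar at the median. The medians are 0.56 for the 9 genes, 0.04 for other monocyte markers, 0.32 for other border macrophage markers and 0.09 for homeostatic microglia markers. CX3CR1 is a point in both the monocyte and the microglia list.

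S100A8, S100A9 and S100A12 are also abundant in granulocytes, and markers of those cells were in part present. Of 18 granulocyte markers, ELANE, PRTN3, DEFA3 and DEFA4 of neutrophils had at most 3 counts in every library, whereas the neutrophil receptor genes CSF3R and CXCR2 were present. CSF3R had 121 and 139.6 CPM in KO LPS against 71.4 and 66.9 CPM in WT LPS libraries, and CXCR2 had 8.06 and 7.32 CPM against 6.91 and 6.25 CPM. FCGR3B, an Fc receptor of neutrophils that is a near-identical copy of FCGR3A and uncertain for that reason, averaged 5.87 ± 0.178 CPM in KO LPS against 0.704 ± 0.243 CPM in WT LPS libraries (SD, n = 2 each), with a log2 fold change of 3.04 ± 0.26 (adjusted p = 9.44e-09 in edgeR). The eosinophil and basophil gene CLC had 348 to 466 CPM and the mast cell gene CPA3 138 to 219 CPM. Of 11 tested, 8 were higher and 0 lower in KO LPS relative to WT LPS (all tested genes: 15.6% and 15.0%). The summed level of the granulocyte markers was 904 to 940.2 CPM in KO LPS against 720.5 to 725 CPM in WT LPS libraries. Most of it came from CLC, CPA3 and CSF3R, so it does not stand for neutrophils alone. The sum was 910.4 to 926 CPM in KO LPS BMS libraries. With BMS265246, 3 of the 11 were higher and 2 lower relative to KO LPS (all tested genes: 22.3% and 25.5%). The lower ones were CXCR2 (-1.95 ± 0.20, adjusted p = 5.25e-08) and MS4A2, an IgE receptor subunit of mast cells and basophils (-0.58 ± 0.11, adjusted p = 0.000372). Markers of dendritic cells summed to 240.4 to 254 CPM in KO LPS against 687 to 723 CPM in WT LPS libraries, with 0 of 11 tested genes higher and 5 lower. Markers of haematopoietic progenitors summed to 179 to 229 CPM in KO LPS against 125 to 150.1 CPM in WT LPS libraries, with 1 of 4 tested genes higher and 0 lower. The part of these cell types in the differences of the 9 genes between genotypes and with BMS265246 was not tested.

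With BMS265246, 5 of the 18 other monocyte markers were higher and 9 lower relative to KO LPS (all tested genes: 22.3% and 25.5%). In the same comparison, 7 of the 14 other border macrophage markers were higher and 2 lower, and 10 of the 18 homeostatic microglial genes were higher and 5 lower. LYZ, lysozyme, was among the monocyte markers that rose (0.60 ± 0.06, adjusted p = 1.05e-07) and CD93, a receptor of monocytes and endothelium, among those that fell (-1.95 ± 0.14, adjusted p = 3.4e-10). COLEC12 (1.01 ± 0.06, adjusted p = 3.28e-11) and FOLR2 (0.60 ± 0.08, adjusted p = 1.14e-06) were among the border markers that rose, as MRC1 did. MERTK, a receptor for dying cells, rose among the microglial genes (1.36 ± 0.07, adjusted p = 1.07e-12) and P2RY13, a nucleotide receptor, fell (-1.72 ± 0.09, adjusted p = 1.15e-12).

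Of 24 tested regulators of monocyte and macrophage genes, 8 were higher and 5 lower in KO LPS relative to WT LPS. The shares over all tested genes were 15.6% and 15.0%. CSF2RA, the receptor for granulocyte-macrophage colony-stimulating factor, had 151 and 156 CPM in KO LPS against 311 and 299 CPM in WT LPS libraries (-0.99 ± 0.06, adjusted p = 1.2e-10), and PPARG, a lipid-sensing transcription factor, was higher (1.23 ± 0.18, adjusted p = 1.45e-05). With BMS265246, 6 of the 24 were higher and 7 lower relative to KO LPS (all tested genes: 22.3% and 25.5%). IRF8, a transcription factor that monocytes and microglia need, had 815 and 776 CPM in KO LPS BMS against 205 and 226 CPM in KO LPS libraries (1.89 ± 0.06, adjusted p = 1.81e-15). MAF, a transcription factor of resident macrophages, had 71.9 and 70.9 CPM in KO LPS BMS against 161 and 189 CPM in KO LPS libraries (-1.29 ± 0.07, adjusted p = 7.94e-12).

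For each of the 9, the genes outside the 9 with the most similar pattern were sought by the root mean square difference between the 5 group means of log2 CPM, each centred on its own mean, among genes with a mean of at least 5 CPM. FCN1 and MRC1 had the closest matches, UBXN11 at 0.02 and LINC00847 at 0.04 for FCN1, and FBP1, the gluconeogenic enzyme, at 0.06 and PRUNE2 at 0.07 for MRC1. CD163 was matched by CDS1 and PNP at 0.08 each, and CD300E by the cyclin gene CCND1 at 0.13 and the osteopontin gene SPP1 at 0.15. SPP1 averaged 15217 CPM in KO LPS BMS, 15391 in KO LPS, 9314 in KO, 8126 in WT LPS and 2614 in WT libraries. S100A8 was nearest to RUBCNL at 0.21 and TREML4 at 0.22, both nearer than its partner S100A9 at 0.24, and S100A9 outside the 9 to MCTP2 and OSGIN1 at 0.32 each. S100A12 was nearest to FSD1L at 0.23 and to the inflammatory caspase gene CASP5 at 0.26, and F13A1 to RAB3IL1 at 0.27 and DLK1 at 0.28. MARCO had the most distant matches, HMGA2 at 0.43 and SPP1 at 0.44, and CD300E at 0.37 was nearer to it than either. These distances rest on 5 group means and carry no test. They are not scaled by how much a gene varies between groups, so they do not rank the 9 genes by how well their patterns were matched.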

How the data were processed

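Per the labels' protocols, TRIzol was used to extract the RNA, and a NEBNext Ultra kit to prepare mRNA libraries. The authors deposited raw counts of reads per gene, with 1 column for each of the 12 libraries. The submitters' processing notes name CASAVA 1.7, Cufflinks and the build GRCh38; the sources used here do not give the aligner, the counter or its strand setting. Symbols were found for 56948 of the 57992 IDs. Groups and replicate numbers came from the titles.

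Genes were kept by filterByExpr with the group factor (16022 left). TMM factors ran from 0.872 to 1.12. The edgeR 4.0.16 fit in R 4.3.3 had 1 mean per group (robust quasi-likelihood, common biological coefficient of variation 0.0635). Groups of 2 libraries borrow their spread from the whole fit, and exact permutation could not go below p = 0.1 for groups of 3 or 0.333 for groups of 2. The standard error is the size of the log2 fold change over the square root of F. The procedure was tested on simulated data. Between replicates, counts differed by a chi-square of 2.02 to 11.1 per degree of freedom, so no pair was taken for 1 library. RPKM divides CPM by the summed exon length in GENCODE 29, which also gave the positions.

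The 9 genes, the 16 lists and the rule for named genes were chosen with earlier results of these data known. Named were the 9 genes, their near relatives, and up to 2 called genes per list and direction with the lowest adjusted p and a mean of at least 1 CPM. CSF1R, TMEM119, SALL1, CD68, CLC and CPA3 are named to describe the cultures. Alternatives were DESeq2 1.42.0 size factors and test, library size alone, no or a stricter filter, only the groups compared, a replicate block, and leaving out each library.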

Additional observations from a re-analysis of the deposited data

Results flagged for a closer look

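The genotype by LPS interaction in edgeR was past the threshold for 8 of the 9 genes, where 12% of all tested genes were. It contains the contrast between KO and WT libraries by which the genes are treated as chosen. That choice pulls it downward, so its values are a description and no test of the 9. The response in KO cells minus that in WT cells, on the log2 scale, was -1.13 for S100A8, -1.18 for S100A9, -1.58 for S100A12, -0.89 for CD300E, -0.57 for MARCO and -0.42 for CD163, which were higher with LPS in both genotypes. It was 0.44 for FCN1 and 0.46 for MRC1, which were lower with LPS in both. The call of S100A12 was lost on leaving out any of 9 of the 12 libraries. Groups of 2 and 3 libraries were too small for a test of single libraries that stand apart.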

How the results depend on the processing

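For each of the 7 comparisons, the number of the 9 genes called stayed within 1.5 times its reported value under the alternatives run. Leaving out 1 library at a time gave 7 throughout without LPS (KO against WT), 9 throughout for each LPS response, 7 or 8 under LPS and in the interaction, 8 or 9 for BMS265246 against KO LPS, and 5 to 7 against KO. Library sizes alone reversed S100A9 (-0.18), F13A1 (-0.09), CD163 (-0.10) and MRC1 (-0.31), and turned the sign of S100A8 (-0.19), in KO LPS BMS relative to KO; among the 9 genes no other alternative changed the sign of a called value. The deviations of same-numbered libraries from their group means had correlations from -0.143 to 0.103 over all genes. Between groups of 2 libraries, both numbers give the same correlation by construction. Such small values cannot settle whether the numbers pair the samples. A replicate block called 7 of the 9 genes and 3091 of all genes in KO against WT, 9 and 8973 for the LPS response of WT cells, 9 and 6562 for that of KO cells, and 8 and 4454 between genotypes under LPS. It called 7 and 1543 in the interaction, 9 and 7379 for KO LPS BMS against KO LPS, and 6 and 9551 for KO LPS BMS against KO. The calls it ended were those of F13A1 in the last of these (0.20) and of S100A12 in the interaction (-1.58). Crossing the numbers of KO LPS, an alternative chosen after seeing the data, called 4651 genes against WT LPS and 7514 for KO LPS BMS against KO LPS. Over all genes, 4900 were called between genotypes under LPS, compared with 2660 where only those groups were fitted, 3138 without WT LPS replicate 2 and 3005 without KO LPS replicate 2. In the interaction 1920 were called, compared with 1212 without WT LPS replicate 2, 3079 without KO LPS replicate 1 and 1162 without KO LPS replicate 2. The cause was not tested. Depth limits S100A12, near the floor without LPS.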

Other observations

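Genes that work beside F13A1 in coagulation were also followed with LPS. Of 12 tested transglutaminase and coagulation genes, 4 were higher and 3 lower in KO LPS relative to KO. The shares over all tested genes were 24.5% and 20.3%. In WT LPS relative to WT, 6 of the 12 were higher and 4 lower (all tested genes: 28.9% and 30.8%). THBS1, the platelet and macrophage glycoprotein thrombospondin-1, rose by 1.85 ± 0.05 on the log2 scale (± SE, edgeR) in KO cells (adjusted p = 1.61e-18) and by 3.37 ± 0.05 in WT cells (adjusted p = 4.61e-23), and PLAUR, the urokinase receptor, by 1.95 ± 0.06 (adjusted p = 2.96e-17) and 1.87 ± 0.06 (adjusted p = 3.8e-17). With BMS265246, F3, which encodes tissue factor, rose relative to KO LPS (1.42 ± 0.09, adjusted p = 2.15e-10) as F13A1 did, whereas THBS1 fell (-1.44 ± 0.06, adjusted p = 1.46e-14).

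Genes that handle haem and iron after uptake through CD163 were followed in the same way. Of 12 tested, 9 were higher and 3 lower in KO LPS relative to KO (all tested genes: 24.5% and 20.3%). In WT LPS relative to WT, 7 were higher and 3 lower (all tested genes: 28.9% and 30.8%). BLVRA, biliverdin reductase, rose by 1.75 ± 0.09 on the log2 scale in KO (adjusted p = 1.35e-13) and 3.36 ± 0.09 in WT cells (adjusted p = 2.63e-18). SLC40A1, the iron exporter ferroportin, fell, with log2 changes of -2.28 ± 0.09 in KO (adjusted p = 4.81e-15) and -2.64 ± 0.10 in WT cells (adjusted p = 3.71e-16). With BMS265246, 6 of the 12 were higher and 0 lower relative to KO LPS (all tested genes: 22.3% and 25.5%). Among the 6 was NFE2L2, a transcription factor of the oxidative stress response (0.90 ± 0.06, adjusted p = 9.55e-11).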
